A study of Mus musculus with 4 samples.

Results

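The genes examined were the proteasome subunit genes of the mouse, together with the genes of the chaperones that assemble the particle and of its activators. They were chosen by name alone, as every gene name on the array that reads Psma, Psmb, Psmc, Psmd, Psme or Psmg followed by a digit. The rule took 48 of 31093 gene names, read by 61 probes. One of them, Psmc3ip, a partner in meiotic recombination, matched by name only and was left out of all counts below, which leaves 47 genes. They comprise 19 genes of the 20S core particle, 17 of the 19S regulatory particle, and the assembly chaperones and activators. Expression was measured in IMS32 cells, a spontaneously immortalized line of adult mouse Schwann cells, so 1 line stands for the cell type. The cells are normally kept in DMEM with glucose, pyruvate and 5% fetal bovine serum, and serum was present in all 4 conditions. Cultures spent 1 h in 5 mM or 15 mM glucose, each with 1 mM pyruvate or with none. The group at 5 mM glucose is called [Glc 5 mM/Pyr (+)] where pyruvate was present and [Glc 5 mM/Pyr (−)] where it was left out. At 15 mM glucose, the names are correspondingly [Glc 15 mM/Pyr (+)] and, without pyruvate, [Glc 15 mM/Pyr (−)]. Where 4 values of a gene follow each other, they stand in this order. No genetic change was made in any group.

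The proteasome degrades proteins that carry ubiquitin chains. Its 20S core is a barrel of stacked alpha and beta rings with the catalytic sites on the inner face of the beta rings, and the alpha rings gate the entry. The 19S particle caps the barrel, binds ubiquitin chains, removes them and unfolds the substrate with a ring of ATPases. Most cells make the subunits in balanced amounts, and the transcription factor NRF1 raises many of their genes together when proteasome activity falls short. Interferon induces alternative catalytic subunits and the 11S activator, which change the peptides that are made for presentation to T cells.

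Each condition was measured on 1 one-colour array from 1 culture, and the 4 arrays lay on 1 slide. With no replicates, no test was run, no p-value is given, and the number of arrays limits the precision. The level of a probe is its log2 intensity minus the log2 75th percentile of the mouse probes on that array. That percentile lay between an intensity of 1597.4 and 1787.7, and between 28470 and 30344 probes were well above background. A gene's level is the mean over its probes that were well above background on all 4 arrays, and 21716 genes had one. A difference between conditions was counted when it reached 1.2-fold, or 0.26 on the log2 scale. The only error that could be estimated is that between repeated spots of 1 probe. The difference of 2 arrays at the same spot had a median SD of 0.039 to 0.042 over 269 probes, and of 0.030 to 0.031 over the 128 brighter ones. This SD leaves out the variation between cultures. All 12 Schwann cell markers examined were well above background on every array, among them Sox10, S100b and Ngfr, while Erbb3 and Gfap were dim, at intensities of 15.6 to 76.4. Of the markers of other cells, 6 of 7 for fibroblasts, 7 of 7 for macrophages and leukocytes and 2 of 5 for endothelial cells were well above background on all arrays. The endothelial marker Cdh5 was on none. With each gene taken as the geometric mean of all its probes, the summed intensity of the Schwann cell markers ranged from 59946.6 to 70248.4 over the arrays, that of fibroblasts from 97402.6 to 104008.4, that of macrophages and leukocytes from 2032.3 to 2942.8 and that of endothelial cells from 367.0 to 509.2. Single probes can be far brighter than such a mean, and the brightest probe of Itgam ranged from 8000 to 13200 and that of Kdr from 4090 to 5500. Most of the fibroblast sum came from 1 gene, Col1a2, at 85800 to 92000, while Pdgfra and Thy1 were dim, at 14.6 to 47.8. Intensities of different genes are not on 1 scale, so the sums do not rank the cell types. The part of these markers in the results below was not tested.

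Of the 47 genes, 45 were well above background on all 4 arrays, and they were bright. Among all measured genes, the median member stood at the percentile of 90.3 by its mean level, and the 45 genes ranged from 49.9 to 98.8. Of the 45, 41 were among the 7239 brightest of all measured genes. For this reason, the members are set below beside both all genes and these brightest genes. The proteasome genes also varied little. The range of a member over the 4 arrays had a median of 0.19 on the log2 scale, against 0.18 for the brightest genes and 0.25 for all genes. Psmd2, a scaffold of the 19S base that binds ubiquitin-like domains, had the smallest range, at 0.054. Psme4, which encodes the activator PA200, had the largest, at 0.39.

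**Figure D1:**
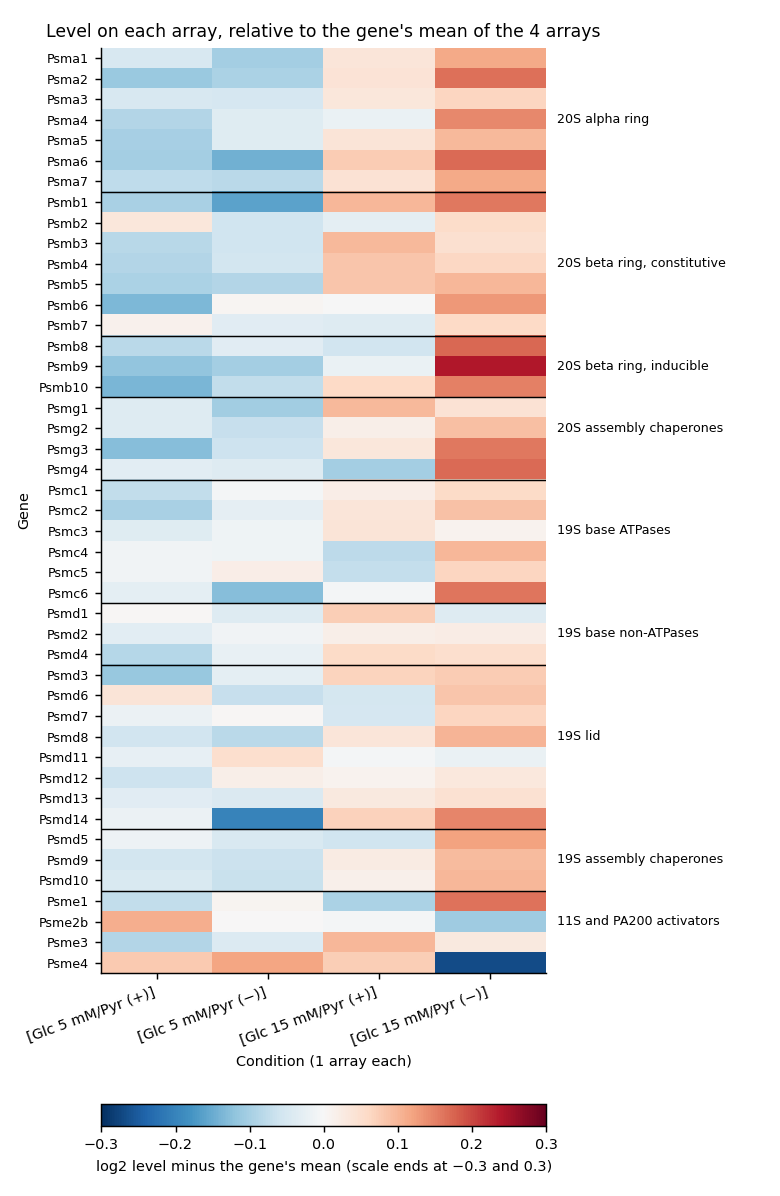
Level of the 45 measured proteasome genes on each of the 4 arrays (columns), as the log2 level minus the gene's mean of the 4 arrays, with genes in rows grouped by role. Red is above and blue below the gene's own mean. The [Glc 15 mM/Pyr (−)] column is the highest for 35 of 45 genes with scaling to the 75th percentile and for 0 with scaling to spike-in RNA, and Psme4 is the lowest there.

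For most proteasome genes, [Glc 15 mM/Pyr (−)] gave the highest level of the 4 conditions. This held for 35 of the 45 genes, 15 of 17 in the core and 13 of 17 in the regulatory particle. The same condition was also the highest for 53.4% of the brightest genes and 38.5% of all genes. The lowest level was on a 5 mM array for most genes, for 20 with pyruvate and for 15 without it. It was on the 15 mM array with pyruvate for 7 and on that without for 3. Of the brightest genes, 35.4%, 30.6%, 12.2% and 21.9% were lowest on these 4 arrays in the same order. Of all genes, the shares were 22.9%, 23.2%, 23.5% and 30.4%. These orders depend on how the arrays are brought to 1 scale. With quantile normalization or cyclic loess, [Glc 15 mM/Pyr (−)] was the highest for 24 of 45 genes, 13 or 12 of 17 in the core but 4 or 5 of 17 in the regulatory particle, against 41.6% or 40.3% of the brightest genes. When the arrays were scaled to the spike-in RNAs that are added in fixed amounts, [Glc 5 mM/Pyr (+)] was the highest for 45 of 45, and for 6929 of the 7239 brightest genes.

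That spike-in scaling moved all genes together. Under it, the median difference of all genes was -0.21 for pyruvate removal at 5 mM glucose, -0.0018 for pyruvate removal at 15 mM, -0.37 for 15 mM against 5 mM glucose with pyruvate and -0.16 without pyruvate. With the 75th percentile these medians were -0.019, 0.033, -0.022 and 0.033. Both scalings subtract a constant from each array, so the members' medians relative to those of all genes had to be the same under both. They were 0.034, 0.037, 0.10 and 0.10. With quantile normalization they were 0.0025, 0.025, 0.030 and 0.050, and with cyclic loess 0.0055, 0.036, 0.027 and 0.055. The cause of the shift under spike-in scaling was not tested. For any single gene, a bulk sample also cannot tell less of its RNA per cell from fewer cells of a kind. Directions below are those with the 75th percentile unless a scaling is named.

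Removing pyruvate at 5 mM glucose left no proteasome gene past 1.2-fold. In this comparison 12.8% of all genes and 1.81% of the brightest genes passed 1.2-fold, so a count of 0 among 45 bright genes lies near the latter share. At 1.5-fold the share of all genes was 2.56%, and no member passed. The median difference, Pyr (−) minus Pyr (+), was 0.015 over the 45 genes, with 24 above 0 and 21 below. It was 0.015 in the core and 0.021 in the regulatory particle, against -0.019 over all genes and -0.0006 over the brightest genes. The median of the members was -0.0020 with quantile normalization and -0.17 with spike-in scaling. The highest difference was that of Psmb6, the caspase-like catalytic subunit, at 0.14, and the lowest that of Psmd14, the deubiquitinase of the lid, at -0.18.

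Removing pyruvate at 15 mM glucose took 2 proteasome genes past 1.2-fold. Psmg4, an assembly chaperone, was 1.21-fold higher, and Psme4 was 1.27-fold lower. Past 1.2-fold were 23.2% of all genes and 8.19% of the brightest genes, and past 1.5-fold were 6.51% of all genes and no member. Of the 45 genes, 35 (77.8%) were above 0, with a median of 0.070. In the brightest genes, 61.2% of genes were above 0, with a median of 0.039, and in all genes 56.9%, with a median of 0.033. The median was 0.082 in the core, with 15 of 17 above 0, and 0.037 in the regulatory particle, with 13 of 17 above 0. This comparison was the one that spike-in scaling moved least, to 0.047 in the core and 0.0021 in the regulatory particle.

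Raising glucose from 5 to 15 mM with pyruvate present took no member past 1.2-fold, against 16.4% of all genes and 2.78% of the brightest genes. Past 1.5-fold were 2.82% of all genes. The median of the 45 genes was 0.080, against -0.022 over all genes and 0.039 over the brightest genes. It was 0.13 in the core and 0.072 in the regulatory particle. Spike-in scaling turned these medians to -0.22 and -0.28, and the latter was also below 0 with quantile normalization, at -0.0094, and with cyclic loess, at -0.0051.

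Raising glucose without pyruvate took 6 members past 1.2-fold, against 26.2% of all genes and 12.5% of the brightest genes, so a share of 6 in 45 lies near that of bright genes. Past 1.5-fold were 6.89% of all genes and no member. The highest was Psmd14, at 1.27-fold, followed by Psmb9 at 1.27-fold, Psmb1 at 1.25-fold, Psma6 at 1.24-fold and Psmc6 at 1.22-fold. Psme4 was 1.31-fold lower. All 17 measured core genes were above 0, with a median of 0.19, whereas 15 of 17 genes of the regulatory particle were, with a median of 0.074. Over the brightest genes, 70.1% were above 0 with a median of 0.084. With quantile normalization and cyclic loess the core median was 0.10 and 0.091, and that of the regulatory particle was below 0, at -0.018 and -0.0083. With spike-in scaling the medians were -0.0075 and -0.12. The core median exceeded that of the regulatory particle under each of these scalings.

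**Figure D2:**
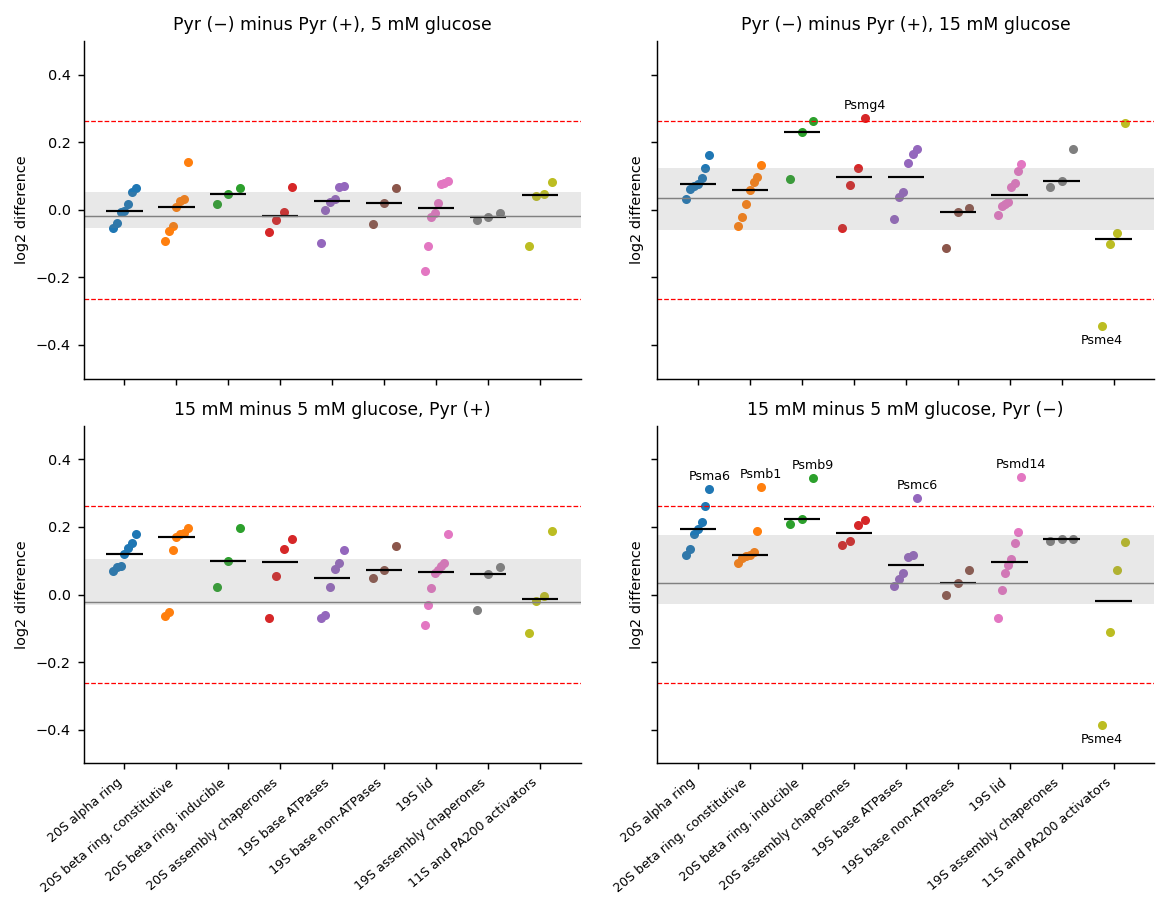
Log2 difference between 2 arrays for each measured proteasome gene (points), by role, in the 4 comparisons, with scaling to the 75th percentile. Black bars are the medians of a role, the grey line the median of all genes, the grey band the quartiles of the 7239 brightest genes, and the dashed lines 1.2-fold. Named genes passed 1.2-fold. No gene passed at 5 mM glucose or with pyruvate present, and with spike-in scaling the medians over all 45 genes lie below 0 in the 2 glucose comparisons and for pyruvate removal at 5 mM glucose.

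The alpha ring genes Psma1 to Psma7 encode the gate of the core. At 15 mM glucose without pyruvate all 7 lay above both 5 mM arrays. Psma6 had the largest range of them, with levels of 4.27 and 4.23 on the 5 mM arrays with and without pyruvate, and of 4.45 and 4.55 on the 15 mM arrays with and without it. Both 15 mM arrays were thus above both 5 mM arrays, by more than the spot error of a difference, which leaves out the variation between cultures. With spike-in scaling, the glucose difference of Psma6 with pyruvate was -0.17. Psma3 had the smallest range, at 0.12. With pyruvate removal at 15 mM glucose, all 7 were above 0, from 0.031 in Psma3 to 0.16 in Psma4. At 5 mM glucose 3 of 7 were above 0, from -0.053 in Psma1 to 0.063 in Psma5. For glucose with pyruvate the differences ran from 0.069 in Psma4 to 0.18 in Psma6, and without pyruvate from 0.12 in Psma3 to 0.31 in Psma6. With spike-in scaling 6 of 7 stayed above 0 for pyruvate removal at 15 mM glucose and 0 of 7 for glucose with pyruvate. For glucose without pyruvate 3 of 7 did, with a median of -0.0017. Under that scaling [Glc 5 mM/Pyr (+)], not [Glc 15 mM/Pyr (−)], was the highest array for all 17 measured core genes. The single Psma5 probe and both Psma4 probes carry a position on another chromosome than their gene. The testis subunit Psma8 was not well above background on any array, with intensities of 1.72 to 2.09.

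Among the constitutive beta subunits, Psmb5, Psmb6 and Psmb7 carry the chymotrypsin-like, caspase-like and trypsin-like sites. Psmb5 and Psmb6 were the core genes whose proximal promoter holds the core of an antioxidant response element, the motif bound by NRF1 and NRF2, and the 200 bases before their start sites are shown here for that reason. The sequences are RefSeq's on GRCm38.p6, written 5′ to 3′ on the strand of the gene, with the matches to TGACNNNGC in capitals. Psmb5 lies on the minus strand at chr14:54617996-54618195, and Psmb6 on the plus strand at chr11:70525157-70525356.
Psmb5: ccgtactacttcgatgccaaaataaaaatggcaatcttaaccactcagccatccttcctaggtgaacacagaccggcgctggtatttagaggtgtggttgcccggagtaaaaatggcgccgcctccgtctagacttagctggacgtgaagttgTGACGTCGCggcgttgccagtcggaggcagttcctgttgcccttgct
Psmb6: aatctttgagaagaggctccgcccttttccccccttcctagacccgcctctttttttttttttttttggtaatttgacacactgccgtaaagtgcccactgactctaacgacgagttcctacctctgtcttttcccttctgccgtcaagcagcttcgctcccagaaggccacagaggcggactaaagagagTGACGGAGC
The match began 47 bases before the start in Psmb5 and 9 bases before it in Psmb6.

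The 3 catalytic genes followed different courses over the arrays. Psmb6 had levels of 5.48, 5.62, 5.62 and 5.75, lowest at 5 mM glucose with pyruvate and highest at 15 mM without it. Pyruvate removal gave a difference of 0.14 at 5 mM and 0.13 at 15 mM glucose. Both were several times the spot error, which leaves out the variation between cultures. Spike-in scaling turned the difference at 5 mM to -0.048. Psmb5 was at 4.57, 4.58, 4.75 and 4.77, with pyruvate differences of 0.0078 and 0.017 that are smaller than the spot error, and glucose differences of 0.18 and 0.19. Its 2 probes differed in sign for pyruvate removal at both glucose concentrations, from -0.027 to 0.042 at 5 mM and from -0.040 to 0.075 at 15 mM. For glucose they gave 0.066 and 0.29 with pyruvate, and 0.17 and 0.21 without. Spike-in scaling turned the glucose differences of Psmb5 to -0.17 with pyruvate and -0.0075 without. Psmb7 was at 2.70, 2.65, 2.65 and 2.74, and its range of 0.097 was the smallest of the core. Its pyruvate difference was -0.048 at 5 mM and 0.097 at 15 mM glucose, and its glucose difference was -0.051 with pyruvate and 0.095 without.

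Of the other constitutive beta genes, Psmb1 had the largest range, with levels of 3.80, 3.73, 3.995 and 4.05 in the same order. Both 15 mM arrays were above both 5 mM arrays, and the glucose difference was 0.20 with and 0.32 without pyruvate. The probe of Psmb1 carries no position. Psmb2 was the lowest of this role for pyruvate removal at 5 mM glucose, at -0.094, and for glucose with pyruvate, at -0.062. Psmb3 was the lowest for pyruvate removal at 15 mM glucose, at -0.049. The highest there was Psmb6. Over the 7 genes, 4 were above 0 for pyruvate removal at 5 mM, 5 at 15 mM, 5 for glucose with pyruvate and 7 without it.

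The inducible catalytic subunits Psmb8, Psmb9 and Psmb10 replace Psmb5, Psmb6 and Psmb7 in the immunoproteasome. Their median was the highest of any role for pyruvate removal at 15 mM glucose, 0.23, and for glucose without pyruvate, 0.22. It rests on 3 genes, and Psmb9 and Psmb8, at percentiles of 49.9 and 63.7 by level, were not among the brightest genes. Differences past 1.2-fold for pyruvate removal at 15 mM were commoner over all genes, 23.2%, than over the brightest, 8.19%. Psmb9 had levels of -1.93, -1.92, -1.83 and -1.57, so the last array stood above the other 3, which lay close together. Its pyruvate difference was 0.015 at 5 mM and 0.26 at 15 mM glucose, the latter just under 1.2-fold. Psmb8 was at -0.37, -0.32, -0.34 and -0.11, the same shape, with pyruvate differences of 0.046 and 0.23. Psmb10 was at 3.04, 3.10, 3.24 and 3.33, with pyruvate differences of 0.064 and 0.091 and glucose differences of 0.20 and 0.22. It thus differed more with glucose than with pyruvate. All 3 were above 0 for pyruvate removal at 15 mM glucose under every scaling, spike-in scaling included.

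Psmb11, the catalytic subunit of the thymus, was well above background on 1 array only. Its single spot read 71.7 in [Glc 5 mM/Pyr (−)] and 2.25 to 2.67 on the other arrays. Against the lowest signal well above background on those arrays, it was at least 8.57-fold higher than in [Glc 5 mM/Pyr (+)] and at least 6.62-fold higher than in [Glc 15 mM/Pyr (−)]. These bounds rest on 1 spot of 1 array and have no replicate check.

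The ATPase ring of the 19S base, Psmc1 to Psmc6, was split in its glucose differences. With pyruvate present, Psmc4 was the lowest at -0.068, Psmc5 was at -0.061, and Psmc2 was the highest at 0.13. Without pyruvate all 6 were above 0, from 0.025 in Psmc3 to 0.29 in Psmc6, with a median of 0.088. That median was -0.023 at its lowest among the other scalings, leaving out spike-in scaling, under which it was -0.11. Psmc6 had levels of 2.34, 2.24, 2.36 and 2.53, lowest in [Glc 5 mM/Pyr (−)] and highest in [Glc 15 mM/Pyr (−)]. Its pyruvate difference was -0.099 at 5 mM glucose, the lowest of the ring, and 0.17 at 15 mM. The highest differences of the ring were 0.070 for Psmc2 at 5 mM and 0.18 for Psmc4 at 15 mM, and the lowest at 15 mM was -0.028 for Psmc3.

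The non-ATPase subunits of the base stayed within 1.2-fold in all 4 comparisons. Psmd4, a receptor for ubiquitin chains, was at 5.17, 5.23, 5.31 and 5.30. Its pyruvate difference was 0.063 at 5 mM and -0.0059 at 15 mM glucose, the latter within the spot error. Its glucose difference was 0.14 with pyruvate, the highest of the role, and 0.074 without. The scaffold Psmd1 was the lowest of the role for pyruvate removal, at -0.041 and -0.11, and for glucose without pyruvate, at -0.0008. Psmd2 was the lowest for glucose with pyruvate, at 0.049, and the highest for pyruvate removal at 15 mM glucose, at 0.0048.

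In the lid, Psmd14 had the largest range of the 19S genes, at 0.35. This zinc metalloprotease cuts ubiquitin chains off the substrate. It had levels of 1.71, 1.53, 1.80 and 1.88. The array with 5 mM glucose and no pyruvate was the low one, and the other 3 lay within a narrower band. The glucose difference without pyruvate, 0.35, was therefore made of a low value at 5 mM and a high one at 15 mM. With spike-in scaling it was 0.15. The Psmd14 probe lies at chr2:61599058-61599117 of mm9, and it is the only probe of the gene.

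The remaining 7 lid genes kept within 1.2-fold in all comparisons. Psmd3 was the highest of the lid for pyruvate removal at 5 mM glucose, at 0.084, and for glucose with pyruvate, at 0.18. Psmd6 was the highest for pyruvate removal at 15 mM, at 0.14, and the lowest for glucose with pyruvate, at -0.090. Psmd11 was the lowest for pyruvate removal at 15 mM, at -0.016, and for glucose without pyruvate, at -0.070. The 19S assembly chaperones Psmd5, Psmd9 and Psmd10, which hold ATPase subunits before assembly, ran from -0.031 in Psmd5 to -0.0094 in Psmd9 for pyruvate removal at 5 mM and from 0.068 in Psmd9 to 0.18 in Psmd5 at 15 mM glucose. For glucose with pyruvate they ran from -0.046 in Psmd5 to 0.080 in Psmd9, and without it from 0.16 in Psmd9 to 0.17 in Psmd10. The values of Psmd9 and Psmd10 for pyruvate removal at 15 mM average probes of opposite sign. These were -0.21 and 0.35 in Psmd9 and -0.069 and 0.24 in Psmd10. The median of the role in that comparison was 0.084, and -0.069 at its lowest among the other settings.

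The activators differed in direction among themselves. Psme1 and Psme2 form the interferon-induced 11S ring, Psme3 encodes a nuclear relative, and Psme4 encodes PA200, a single-chain cap that opens the core without ATP. Psme4 had levels of -0.20, -0.16, -0.20 and -0.54. The first 3 arrays lay close together, and the last was low. The pyruvate difference was 0.039 at 5 mM and -0.34 at 15 mM glucose, and the glucose difference was -0.0042 with and -0.39 without pyruvate. Both Psme4 probes gave this picture, with intensities of 1921, 1925, 1708 and 1374 for the probe at chr11:30756055-30756114 and of 1268, 1265, 1131 and 912 for that at chr11:30710953-30711012, both in mm9. Their differences for pyruvate removal at 15 mM glucose were -0.34 in both. Psme4 stayed past 1.2-fold and lower in both comparisons in all 11 other settings of scaling, filtering and probe choice.

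Psme1 differed in the opposite direction. Its probe was printed 10 times, which makes it the only member with a spot error of its own. Its levels were 1.58 ± 0.064, 1.67 ± 0.071, 1.56 ± 0.075 and 1.82 ± 0.063 (SD, n = 10 spots). The difference of 2 arrays at the same spot was 0.082 ± 0.022 for pyruvate removal at 5 mM glucose and 0.26 ± 0.025 at 15 mM, where the 10 spots ran from 0.23 to 0.29. It was -0.019 ± 0.023 for glucose with pyruvate and 0.15 ± 0.027 without. The 10 spots share 1 RNA sample per array, so they measure the array and not the cultures.

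Psme3 was at 0.58, 0.62, 0.77 and 0.69, highest in [Glc 15 mM/Pyr (+)], with pyruvate differences of 0.047 and -0.070 and glucose differences of 0.19 and 0.072. No gene name on the array reads Psme2, and its near-identical copy Psme2b is read by 3 probes, of which 2 also list a Psme2 transcript. Those 2 probes had glucose differences without pyruvate of 0.18 and 0.25, at intensities of 7262 to 33430. The remaining probe, specific to Psme2b, was dim, at 37.3, 29.2, 21.0 and 16.2, with a difference of -0.76. The gene mean of Psme2b, -0.11 in that comparison and also -0.11, -0.10 and -0.12 in the other 3, therefore joins signals that differ in direction and is uncertain.

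The chaperones Psmg1 to Psmg4 guide the building of the alpha ring. Psmg4 was at 1.59, 1.58, 1.52 and 1.79, so the array with 15 mM glucose and no pyruvate stood above the other 3. Its pyruvate difference was -0.0064 at 5 mM and 0.27 at 15 mM glucose, the highest of the 45 genes. Its glucose difference was -0.070 with pyruvate, the lowest of the role, and 0.21 without. The pyruvate difference at 15 mM stayed above 0 in all 11 other settings and past 1.2-fold in 6 of them. Psmg3 was at 1.84, 1.91, 2.01 and 2.13, with pyruvate differences of 0.066 and 0.12 and the highest glucose differences of the role, 0.16 and 0.22. Psmg1 was at 2.98, 2.91, 3.11 and 3.06, below 0 for pyruvate removal at both glucose concentrations, at -0.065 and -0.055, with glucose differences of 0.14 and 0.15. Psmg2 was at 1.00, 0.97, 1.06 and 1.13, with pyruvate differences of -0.032 and 0.072 and glucose differences of 0.055 and 0.16.

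**Figure D3:**
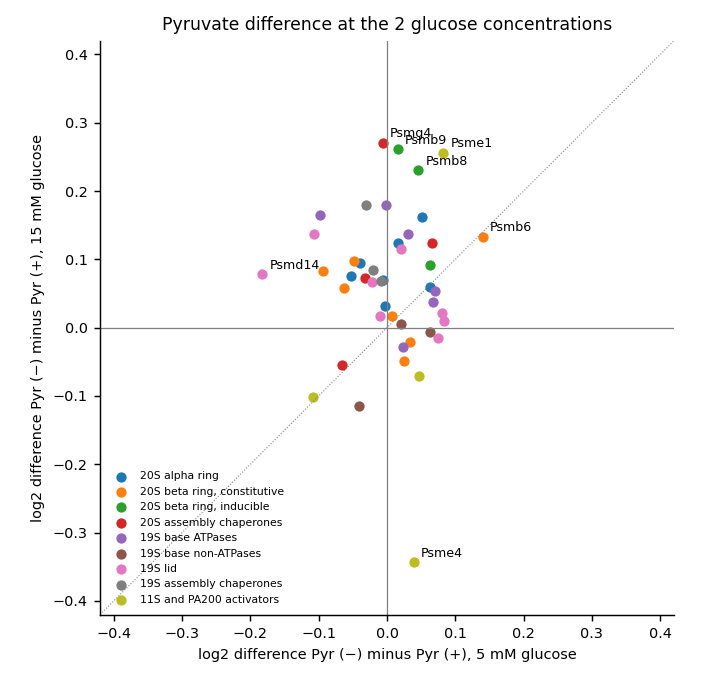
Log2 difference Pyr (−) minus Pyr (+) at 5 mM glucose (x axis) and at 15 mM glucose (y axis) for the 45 measured genes, coloured by role, with scaling to the 75th percentile. The dotted line marks equal differences. Of the 45 genes, 20 have the same sign on both axes and 18 lie below 0 at 5 mM and above 0 at 15 mM. With spike-in scaling, 0 of the 45 genes lie above 0 at 5 mM. Psme4 lies alone at the bottom.

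The pyruvate differences at the 2 glucose concentrations come from 4 separate arrays, and over the members they had little in common. Across the 45 genes, which share these arrays and are not independent, Pearson's r was 0.004 and Spearman's rho -0.056. The sign was the same for 20 genes, 17 above 0 and 3 below, while 18 were below 0 at 5 mM and above 0 at 15 mM and 7 the reverse. The glucose differences with and without pyruvate had an r of 0.34 and a rho of 0.33, and the sign was the same for 34 of 45. These signs depend on the scaling. With spike-in scaling, 0 members were above 0 for pyruvate removal at 5 mM and 29 at 15 mM, and 0 for glucose with pyruvate and 11 without. The same relations were not computed over all genes, so they are not read as a trait of the members. The pyruvate difference at 15 mM minus that at 5 mM had a median of 0.076 over the members, against 0.049 over all genes and 0.034 over the brightest genes. It was 0.11 in the core and -0.015 in the regulatory particle. With spike-in scaling the latter was 0.14, under a median of all genes of 0.20.

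**Figure D4:**
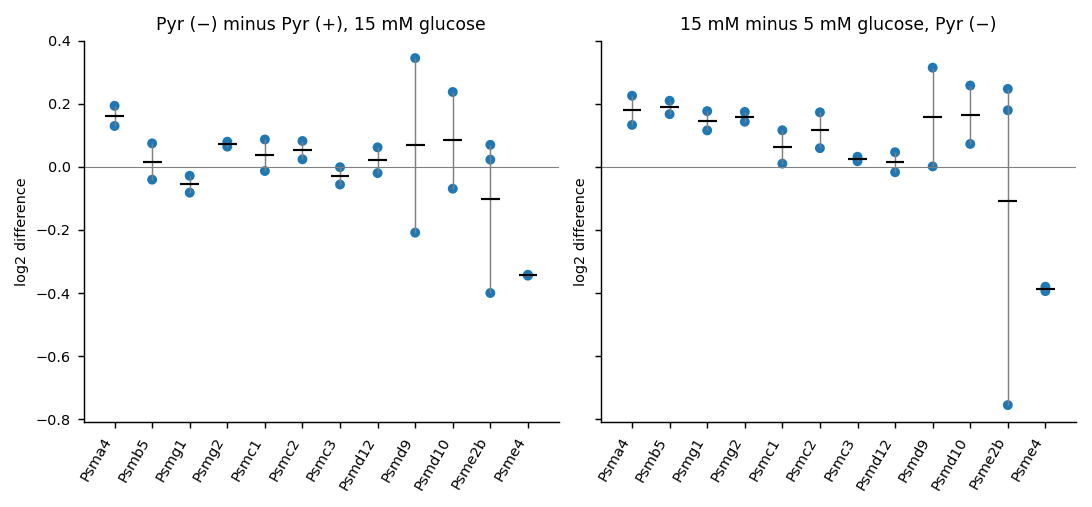
Log2 differences of single probes (points) for the 12 proteasome genes with more than 1 probe well above background on all arrays, for pyruvate removal at 15 mM glucose and for 15 mM against 5 mM glucose without pyruvate. Black bars are the gene's mean. The 2 probes of Psme4 nearly coincide at -0.34 and near -0.39, and those of Psmd9 and Psme2b lie far apart.

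For 12 genes with several probes, the probes printed under the same gene name were compared. They need not read the same RNA. Some Psme2b probes also list a Psme2 transcript, and both Psma4 probes and a Psmc1 probe carry a position on another chromosome. The spread between the probes of a gene had a median of 0.068 and 0.073 for pyruvate removal at 5 and 15 mM glucose. It was 0.088 and 0.078 for glucose with and without pyruvate. Over the members, the medians of these comparisons were 0.015, 0.070, 0.080 and 0.13. All probes had the same sign in 5, 6, 8 and 10 of the 12 genes in these comparisons. The widest disagreement for pyruvate removal at 15 mM glucose was in Psmd9, whose probes gave -0.21 and 0.35. That for glucose without pyruvate was in Psme2b.

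Among the members, Psmb5, Psmb6, Psmc6, Psmd9, Psmd12 and Psme4 had a match to TGACNNNGC on either strand between 250 bases before and 50 after the start. These 6 are 15.4% of the 39 members with a RefSeq promoter against 14.0% of 27025 genes. A CCAAT box was found in 14 members, 35.9% against 41.1%, and the interferon-stimulated response element core GAAANNGAA in 7, 17.9% against 9.76%. Each motif was searched separately on both strands, and a match is a description only. The bases before the start of 3 of the genes past 1.2-fold without pyruvate are shown because these genes differed most between the arrays. Capitals mark CCAAT or its reverse complement in Psmd14 and Psmb9, and in Psme4 the first 7 of 9 bases of a match on the reverse strand that runs across the start. The windows are chr2:61711494-61711693 on the plus strand for Psmd14, chr17:34187331-34187530 on the minus strand for Psmb9 and chr11:30771575-30771774 on the plus strand for Psme4, all in GRCm38.p6.
Psmd14: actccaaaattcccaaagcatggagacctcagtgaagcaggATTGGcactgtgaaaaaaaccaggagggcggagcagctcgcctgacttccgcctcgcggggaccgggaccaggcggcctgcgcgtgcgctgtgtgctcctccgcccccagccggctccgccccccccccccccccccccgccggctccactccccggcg
Psmb9: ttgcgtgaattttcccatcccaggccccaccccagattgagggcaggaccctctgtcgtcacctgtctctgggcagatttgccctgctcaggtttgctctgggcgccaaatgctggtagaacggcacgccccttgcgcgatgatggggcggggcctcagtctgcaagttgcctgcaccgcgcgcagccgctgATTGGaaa
Psme4: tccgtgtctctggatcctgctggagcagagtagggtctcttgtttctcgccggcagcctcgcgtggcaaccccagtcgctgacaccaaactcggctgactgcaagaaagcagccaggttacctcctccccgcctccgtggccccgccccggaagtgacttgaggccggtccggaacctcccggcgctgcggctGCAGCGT
No entry of these 3 genes held GAAANNGAA.

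Genes around the proteasome were described by 4 lists that do not follow the name rule. Of 11 measured partners, 6 were above 0 for pyruvate removal at 5 mM glucose and 8 at 15 mM, with medians of 0.039 and 0.090. AI314180, the gene of the proteasome adaptor ECM29, had intensities of 525, 622, 547 and 380, low in [Glc 15 mM/Pyr (−)] as Psme4 was. Its pyruvate difference was 0.28 at 5 mM, the highest of the list, and -0.56 at 15 mM, the lowest, and its glucose difference without pyruvate, -0.62, was past 1.5-fold. Zfand5, a zinc-finger protein that stimulates the proteasome, had intensities of 591, 648, 563 and 860, with pyruvate differences of 0.17 and 0.58, the highest of the list at 15 mM. The inhibitor Psmf1 was the lowest at 5 mM, at -0.083. These 2 genes lay far from the rest of the list, whose interquartile range for pyruvate removal at 15 mM glucose was 0.088, against 0.11 for the 45 members.

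The pathway of NRF1, encoded by Nfe2l1, had 7 of 9 listed genes measured, and Nfe2l3 and Ddi1 were not well above background on any array. The medians for pyruvate removal were -0.0063 at 5 mM and 0.088 at 15 mM glucose. Maff, a small MAF partner, was the lowest at 5 mM, at -0.18, and the highest at 15 mM, at 0.29. Mafg was the highest at 5 mM, at 0.14, and Ngly1, which removes sugars from NRF1, the lowest at 15 mM, at -0.15. In the list of ubiquitin supply and shuttling, 15 genes had medians of 0.0032 and -0.053. The shuttle Rad23b was the lowest at 5 mM, at -0.30, and the autophagy receptor Sqstm1 the lowest at 15 mM, at -0.20.

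The genes of MHC class I loading share their interferon response with Psmb8, Psmb9, Psmb10 and Psme1. The 10 measured genes had medians of 0.062 and -0.0084 for pyruvate removal at 5 and 15 mM glucose. The transcription factor Irf1 was the highest at 15 mM, at 0.48, with intensities of 3624, 4054, 3701 and 5275. B2m, the light chain of class I molecules, was the lowest at 5 mM, at -0.057. The peptide transporter Tap1, whose gene neighbours Psmb9, had intensities of 150.3, 150.2, 151.5 and 149.9. The median of this list at 15 mM glucose was below that of all genes, 0.033, while the pyruvate differences of Psmb8, Psmb9 and Psme1 were 0.23 to 0.26, that of Psmb10 was 0.091, and those of the 2 probes that also list Psme2 were 0.023 and 0.070.

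**Figure D5:**
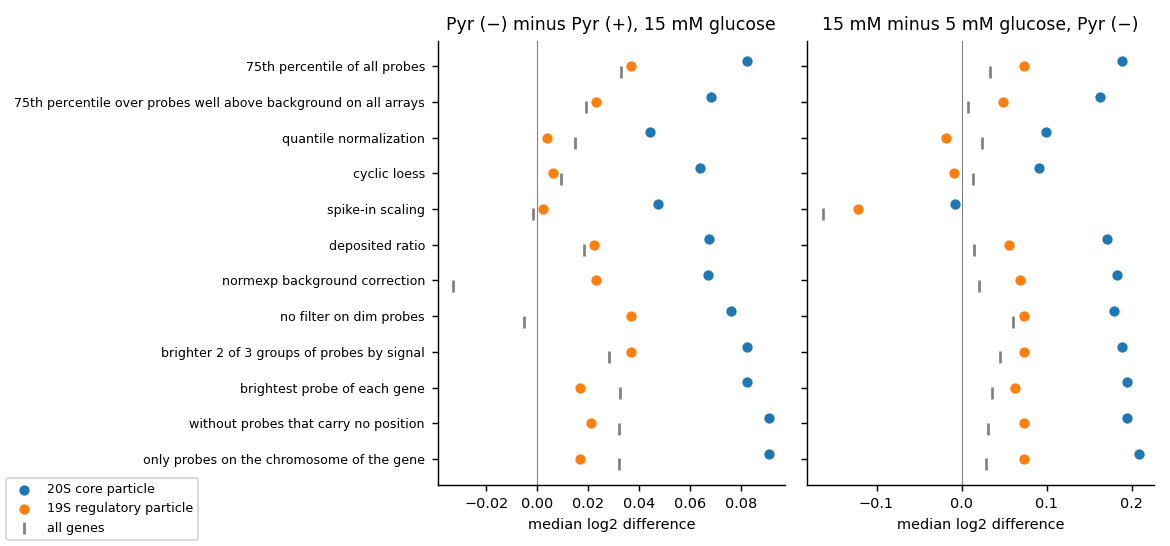
Median log2 difference of the 17 measured core genes, the 17 genes of the regulatory particle and all genes (x axis) under 12 settings of scaling, background correction, filter and probe choice (y axis), for pyruvate removal at 15 mM glucose and for 15 mM against 5 mM glucose without pyruvate. The core lies to the right of the regulatory particle in each setting. In the glucose comparison all 3 medians lie below 0 with spike-in scaling, and that of the regulatory particle also with quantile normalization and cyclic loess.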

How the data were processed

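RNA from 1 culture per condition was extracted with TRIzol, labelled with Cy3 by the Low Input Quick Amp kit and hybridized to Agilent Whole Mouse Genome arrays. The files deposited per array come from Feature Extraction 11.5.1.1 and hold a background-corrected intensity per spot not yet scaled. The series table of the authors gives the same values as a ratio, equal to intensity over 1 factor per array within a relative 5.6e-07. GeneSpring GX is named by the authors without settings. Here, control and outlier spots were left out, spots of a probe were averaged as log2 intensity, and the 75th percentile of 39429 mouse probes was subtracted on each array. Genes were averaged over probes that passed the background flag on all 4 arrays. Named genes are the catalytic subunits, Psmd4, Psmd14, activators, core chaperones, the extremes of each role, members past 1.2-fold and those not measured, and in the lists the extremes for pyruvate and genes past 1.5-fold. A few list genes under this rule are not reported here but count in the medians. Promoters were read from RefSeq for GRCm38.p6, and 39 of 47 members matched. The members and lists were chosen with earlier results of these data known. A 1.2-fold rule replaced a test, and the arithmetic was tested on simulated data. The files place probes in mm9. Of the 61 member probes, 9 carry none and 4 lie on another chromosome than their gene, so other probe choices were tried, as were other scalings, normexp correction with an offset of 50 and other filters. Names of genes were kept as printed on the array. Calculations used Python 3.11.15, numpy 2.4.6 and pandas 2.3.3, with limma 3.58.1 under R 4.3.3 for normalization. The authors' own comparisons were not used.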

Additional observations from a re-analysis of the deposited data

Results flagged for a closer look

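Psme4 and Psmg4 had pyruvate differences of opposite sign at the 2 glucose concentrations, with 1 of the 2 past 1.2-fold. In Psme4 the difference was 0.039 at 5 mM and -0.34 at 15 mM glucose, so that the second minus the first was -0.38. In Psmg4 it was -0.0064 at 5 mM and 0.27 at 15 mM glucose, a change of 0.28. Each sign rests on 1 array against 1 array, and the value of Psmg4 at 5 mM lies within the spot error and was above 0 under some settings, up to 0.0021. With spike-in scaling both genes were below 0 at 5 mM, Psme4 at -0.15 and Psmg4 at -0.19. The difference was not tested for either gene.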

How the results depend on the processing

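No paired analysis was possible because each condition has 1 array, and for the same reason neither leaving out an array nor blocking on the slide could be run. Of 303 recomputed values under 13 settings, 86 were those of members past 1.2-fold, and none of the 86 changed sign. These members were picked for the size of their difference, so a change of sign was unlikely and the other members are not covered. Over all members, the number above 0 for glucose without pyruvate was 41 in the main setting and 11 with spike-in scaling. With 1.5-fold or 2-fold as the threshold, 0 members passed in each comparison. For pyruvate removal at 15 mM glucose, 1 member passed 1.2-fold with the percentile over detected probes, with cyclic loess, with spike-in scaling and with the deposited ratio. For glucose without pyruvate, 3 passed with quantile normalization, cyclic loess and spike-in scaling. The medians of that comparison were 0.0997 in the core and -0.0184 in the regulatory particle with quantile normalization, and 0.0907 and -0.0083 with cyclic loess. With spike-in scaling, the medians over all members, the core and the regulatory particle were -0.1731, -0.1731 and -0.1676 for pyruvate removal at 5 mM glucose. They were -0.2692, -0.2173 and -0.2774 for glucose with pyruvate, and -0.0618, -0.0075 and -0.1224 without. Under this scaling, 5 members passed 1.2-fold in the first comparison and 26 in the second. The median of all genes was itself -0.2074 in the first and -0.3716 in the second, the latter past 1.2-fold. The share of all genes past 1.2-fold is not given for these other settings. With no filter on dim probes, 1 member passed for pyruvate removal at 5 mM glucose and 2 for glucose with pyruvate, where the brightest probe of each gene gave 1. The cause of these shifts was not tested. Leaving out probes on another chromosome or without a position was chosen after seeing the data. It left 35 members, whose median for glucose without pyruvate was 0.15.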
